A study of Mus musculus with 10 samples.

Results

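Axon guidance ligands and receptors were followed in the whole brain of newborn mice that lack 1 functional copy of *Arid1b*, a subunit of the SWI/SNF chromatin remodeling complex. The members were the protein-coding genes whose symbols place them among the semaphorins, plexins, neuropilins, ephrins, Eph receptors, Slits, Robos, netrins, Unc5 receptors and Dcc. The table listed 70 of the 71 annotated genes that fit this rule, among 18444 genes in all, and the remaining gene, *Ntn5*, was not analysed here. By family there were 20 semaphorins, 9 plexins, 2 neuropilins, 8 ephrins, 14 Eph receptors, 3 Slits, 4 Robos, 5 netrins, 4 Unc5 receptors and *Dcc*. All 70 members had a mean of at least 10 normalised counts and were tested with 16950 other genes.

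The samples were 10 whole brains from male C57BL/6N pups at postnatal day 3. In 5 mice, the heterozygous group (HT), 1 *Arid1b* allele carried a constitutive CRISPR edit that truncates the protein from exon 5, and the 5 wild-type mice (WT) carried none. The edit was present in every cell of the animal, and no other transgene or drug was used in these groups. Each mouse gave 1 library of poly-A RNA. Values are normalised counts, the estimated reads of a gene divided by the size factor of the library, and fold changes are HT over WT on the scale of log2(normalised count + 1).

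In the developing nervous system, growing axons read membrane-bound and secreted cues through receptors on the growth cone. Secreted class 3 semaphorins act mostly through neuropilin and plexin complexes, ephrins and Eph receptors signal at cell contacts in both directions, Slits repel axons through Robos, and netrins attract axons through Dcc or repel them through Unc5 receptors. Around birth, cortical, callosal and corticospinal axons are still elongating and sorting, and many of the same cues also act in blood vessels and later at synapses.

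The 10 libraries held between 27.2 M and 29.03 M normalised counts, equal to an estimated 24.99 M to 31.1 M reads. *Arid1b* itself read 2101 ± 343 normalised counts in HT (range 1505 to 2372, SD, n = 5) and 3335 ± 203 in WT (3108 to 3597), a log2 fold change of −0.68 ± 0.11 (SE), and the groups did not overlap (exact permutation test, two-sided, p = 0.00794, the smallest that 5 against 5 can give). The limma adjusted p over all genes was 0.390, and 2.52e-04 when library HT 4 was left out. HT 4 stood apart from the other 9 libraries. Its score on the first principal component was 53.9, against −23.4 to 9.81 elsewhere, and it was the lowest of the 10 libraries for 27.5% and the highest for 24.7% of all genes tested. The comparison of HT with WT is therefore given with and without HT 4. Markers of neurons, astrocytes and radial glia, the oligodendrocyte lineage, microglia, vessels and meninges were all detected, none at 0.

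Levels between genes were compared in WT per kilobase of the longest protein-coding transcript. On this scale the members spanned a 229-fold range. The highest was *Efnb3*, a transmembrane ephrin that forms a midline barrier for corticospinal axons, at 2347 ± 51.0 normalised counts per kilobase (SD, n = 5), and the lowest was the Eph receptor *Epha1* at 10.3 ± 1.35. *Efnb3* alone made up 49.6% of the summed level of the 8 ephrins. The highest semaphorin was *Sema4g*, a membrane-bound class 4 member, at 1182 ± 50.01. The next was *Sema7a*, which is anchored by a lipid and binds plexin C1, at 961 ± 35.2. Class 3 members were below both, from *Sema3f* at 306 ± 38.8 down to *Sema3g* at 26.2 ± 3.64. The means of *Sema4d* (264), *Sema4b* (232), *Sema5b* (215) and *Sema5a* (181) lay within the same span. *Slit1* led the Slits at 428 ± 34.9, above *Slit2* at 133 ± 8.34 and *Slit3* at 70.2 ± 9.94, and their ranges did not overlap.

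Among the receptors, *Plxna1*, a signaling partner of neuropilins for class 3 semaphorins, was the highest by this length at 1221 ± 107. *Nrp2* (696 ± 19.7) lay above *Nrp1* (431 ± 17.0), the coreceptors that bind different class 3 semaphorins. *Epha5* (798 ± 25.5) and *Epha4* (749 ± 39.4), both receptors for ephrin-A ligands, had overlapping ranges and stood above the other Eph receptors. *Robo2* (829 ± 33.8) exceeded *Robo1* (646 ± 30.1), and both were far above *Robo4*, known from blood vessels (53.0 ± 2.04), and *Robo3*, the receptor that lets commissural axons cross the midline (52.1 ± 2.59), whose ranges overlapped. *Unc5a* (382 ± 21.1) was the highest Unc5 receptor, and *Dcc*, the receptor through which netrin-1 attracts axons, was at 248 ± 14.5. Of the netrins, the membrane-anchored *Ntng2* (507 ± 12.8) and *Ntng1* (253 ± 7.86), which bind synaptic adhesion proteins rather than Dcc, were above the secreted *Ntn1* (205 ± 15.4). In all, 25 of 60 neighbouring pairs within families had overlapping WT ranges. With the mean length of all coding transcripts in place of the longest, the first rank passed to *Epha4* among Eph receptors (1702), *Plxnb1* among plexins (1558) and *Ntng1* among netrins (673), and *Robo2* (1821) was the highest receptor. *Efnb3* was the highest member by either length.

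**Figure D1:**
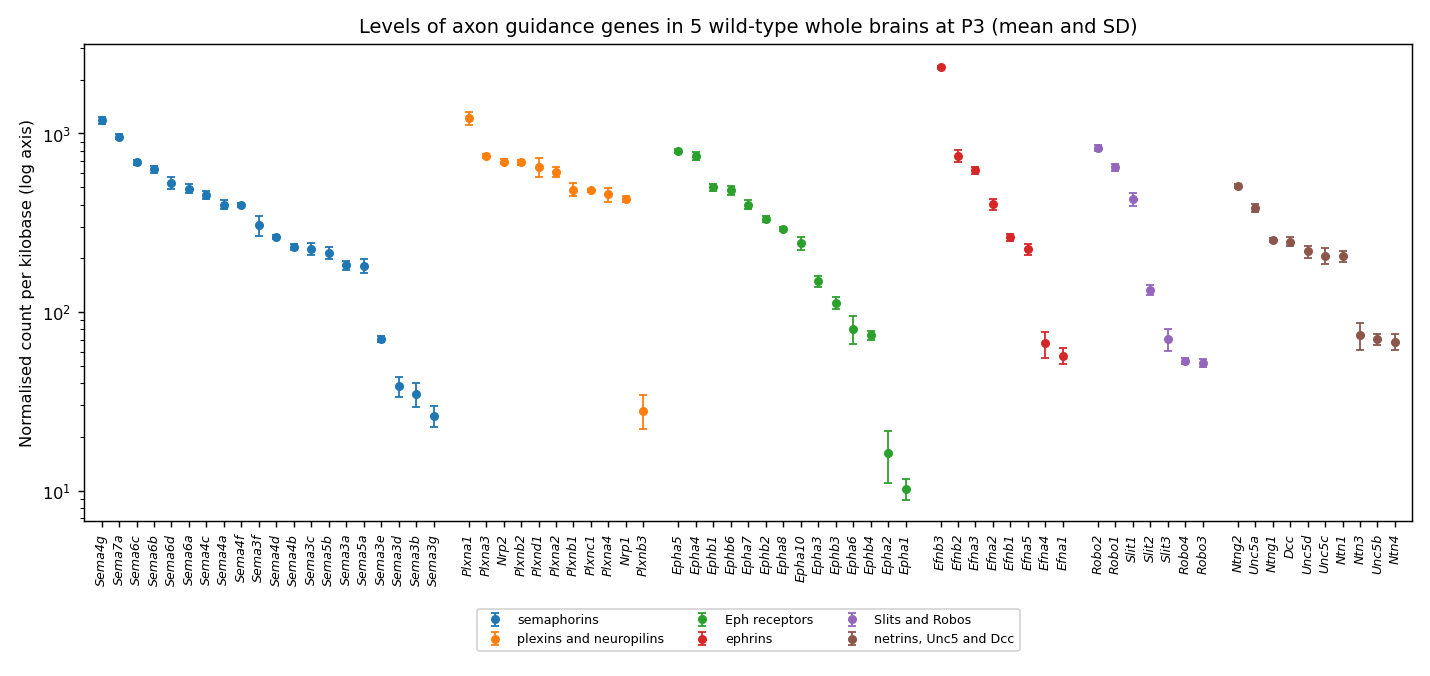
Level of each of the 70 members in WT, in normalised counts per kilobase of the longest coding transcript on a log axis, ordered within 6 family groups. Points are means and bars SD over 5 WT mice, and *Efnb3* stands highest at 2347 while *Epha1* is lowest at 10.3.

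The central question was whether loss of 1 *Arid1b* allele changed the levels of these cues and receptors at this age. With all 10 libraries, none of the 70 members passed a limma adjusted p of 0.05, nor did any gene in the whole table (0.0% of 17020). At an unadjusted p under 0.05, 1 member was higher in HT (*Robo3*, background 1.47% of all genes) and 1 was lower (*Efnb1*, background 1.93%). Together they were 2.86% of the members, against 3.41% of all genes tested. The HT and WT libraries of 1 member, *Efnb1*, did not overlap (1.43%, background 0.629%), and 3 members (4.29%) had an exact permutation p under 0.05, against 3.9% of all genes. These shares lie near the background. The log2 fold changes of the members ran from −0.26 (*Sema3b*) to 0.25 (*Robo3*), with a median of −0.013 against −0.0074 over all genes, and 28 of 70 (40.0%) were above 0, against 46.4% of all genes.

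How large a change in the whole-brain level of a gene could have been missed is given by the limma 95% intervals. They are intervals of single genes, not adjusted over the 70 members. They do not bound a change within a single region or cell type. The interval lay inside a 2-fold change in either direction for all 70 members, inside a 1.5-fold change for 67, and inside a 1.2-fold change for 40. The members that reached past 1.5-fold were *Epha2*, *Epha6* and *Sema3b*. *Epha2* and *Sema3b* are read at low levels, with WT means of 63.9 and 119 normalised counts. *Epha6* was lowest in HT 4, but its interval without HT 4, 0.10 to 0.64 on the log2 scale, still reached past 1.5-fold. Without HT 4, 67 members lay inside a 1.5-fold change and 44 inside a 1.2-fold change.

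*Efnb1*, ephrin-B1, is an X-linked transmembrane ligand of EphB receptors, present as 1 copy in these males. Its normalised counts were 803, 773, 725, 725 and 742 in HT 1 to HT 5 and 861, 835, 832, 920 and 832 in WT 1 to WT 5. Each HT library was below each WT library, including HT 4. The means were 754 ± 33.5 in HT and 856 ± 37.7 in WT (SD), 88.0% of WT. The log2 fold change was −0.18 ± 0.055 (SE), with an unadjusted limma p of 0.00555 and an exact permutation p of 0.00794 (two-sided). It was −0.17 without HT 4 and had an unadjusted p under 0.05 in all 20 alternative fits, with a range of −0.21 to −0.14, but its limma adjusted p was never below 0.454. Beside it, the summed markers of meninges and fibroblasts ran from 7428 to 12901 normalised counts in HT and from 8297 to 34421 in WT. Their median log2 fold change was −0.30, with 2 of 7 above 0. Those of vessel cells ran from 8217 to 9563 and from 8397 to 9945 (median −0.10, 2 of 9 above 0). All 8 microglial markers had lower means in HT (median −0.19), none with an unadjusted limma p under 0.05. In HT 4, where *Efnb1* read 725, the median deviations of these lists from their gene means were 0.22, 0.044 and 0.19 (log2). Markers of neurons, astrocytes and radial glia, and the oligodendrocyte lineage had median fold changes of 0.029, 0.033 and 0.065. The part of cell composition in the *Efnb1* value was not tested. In bulk tissue, fewer cells of a type and less RNA per cell cannot be told apart.

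*Robo3* is a divergent Robo receptor needed for commissural axons to cross the midline. It read 283, 251, 291, 346 and 324 normalised counts in HT 1 to HT 5 and 258, 244, 242, 238 and 268 in WT 1 to WT 5. The HT libraries other than HT 2 lay above every WT library. The means were 299 ± 36.7 and 249.8 ± 12.4, and the log2 fold change was 0.25 ± 0.093 (SE; unadjusted limma p = 0.0181, adjusted p = 1.00, exact permutation p = 0.0238). HT 4 was the highest library, and without it the difference was 0.20 (limma adjusted p = 0.582). The unadjusted p stayed under 0.05 in all 20 alternatives, between 0.20 and 0.31 on the log2 scale. Beside it, the summed level of 6 Hox genes that mark hindbrain and spinal cord varied widely, with 190.4, 143, 932, 385 and 1177 normalised counts in HT 1 to HT 5 and 336, 45.7, 474, 559 and 593 in WT 1 to WT 5. HT 2 was the lowest HT library for both *Robo3* and this sum, whereas HT 4, the highest for *Robo3*, had a sum within the WT range. With HT 4 set aside, the HT libraries had the same order for *Robo3* and for the sum. In WT, the highest library was WT 5 for both, and the lowest was WT 4 for *Robo3* and WT 2 for the sum. Of the 6 Hox genes, 5 had fold changes above 0 (median 0.27, and 0.31 without HT 4). The part of these regions in the *Robo3* value was not tested.

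*Efnb1* and *Robo3* were the members with an unadjusted p under 0.05, and their promoters are shown so that base composition and core promoter motifs can be read beside the values. The windows are RefSeq sequence of GRCm38.p6, from 250 bases before to 50 bases after the annotated start, in the direction of transcription, with CG dinucleotides in capitals. The *Efnb1* window lies at chrX:99135811-99136110 on the plus strand and that of *Robo3* at chr9:37433126-37433425 on the minus strand.
Efnb1: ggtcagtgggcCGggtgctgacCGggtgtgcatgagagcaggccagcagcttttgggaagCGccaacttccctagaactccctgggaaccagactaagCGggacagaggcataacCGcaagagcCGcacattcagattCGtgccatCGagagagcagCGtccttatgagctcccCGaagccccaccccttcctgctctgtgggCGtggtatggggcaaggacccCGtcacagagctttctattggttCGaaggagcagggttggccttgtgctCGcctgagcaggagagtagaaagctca
Robo3: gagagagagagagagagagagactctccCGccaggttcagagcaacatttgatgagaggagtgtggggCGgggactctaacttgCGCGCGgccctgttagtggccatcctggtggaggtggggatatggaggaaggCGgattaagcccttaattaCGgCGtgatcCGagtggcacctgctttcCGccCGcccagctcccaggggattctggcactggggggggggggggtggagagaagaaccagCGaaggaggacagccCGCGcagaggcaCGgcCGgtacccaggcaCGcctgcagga
The *Efnb1* window held 14 CG dinucleotides at a GC content of 59.7%, and that of *Robo3* held 17 at 63.3%. Both were searched on both strands for the TATA box letters TATAAA and the GC box letters GGGCGG. Neither held TATAAA, and *Robo3* alone held GGGCGG. Among the 60 members with a promoter in the table, TATAAA was found in 2 (3.33%) against 9.18% of 11618 tested protein-coding genes, and GGGCGG in 45 (75%) against 67.2%. The median number of CG dinucleotides was 21 in the members and 20 in all genes, and the median GC content was 65.0% and 60.7%. These are matches of letters and say nothing of the binding of any factor.

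No other ligand had an unadjusted limma p under 0.05 with all libraries. Among the semaphorins, 9 of 20 had fold changes above 0 and 11 below (median log2 fold change −0.00099). The smallest p belonged to *Sema3e*, a secreted ligand of plexin D1 that steers vessels and some axon tracts. Its normalised counts were 569, 589, 600.0, 408 and 608 in HT 1 to HT 5 and 459, 472, 484, 509 and 496 in WT 1 to WT 5. Here HT 4 lay below every WT library and the other 4 HT libraries lay above every WT library. Its log2 fold change of 0.18 ± 0.10 (SE; unadjusted limma p = 0.0960, exact permutation p = 0.135) became 0.29 without HT 4 (limma p = 2.73e-04, adjusted p = 0.269). *Sema4g*, the highest semaphorin, read 5451, 5501, 5403, 4541 and 5262 in HT 1 to HT 5 and 5346, 5077, 5717, 5386 and 5364 in WT 1 to WT 5. HT 4 was the lowest library and the others overlapped, with means of 5231 ± 396 in HT and 5378 ± 227 in WT, and the fold change of −0.04 became 0.0078 without HT 4.

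Among the 8 ephrins, 3 had fold changes above 0 and 5 below (median −0.0079). The most abundant ephrin, *Efnb3*, read 7297, 7642, 7791, 7378 and 7584 in HT 1 to HT 5 and 7436, 7725, 7378, 7300 and 7512 in WT 1 to WT 5. HT 4 lay within the WT range, and the means of 7538 ± 200.2 and 7470 ± 162 gave a log2 fold change of 0.01 ± 0.040 (SE), or 0.02 without HT 4.

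*Slit2*, a repellent at the midline, had the smallest p of the Slits, with 1595, 1428, 1503, 1057 and 1365 in HT 1 to HT 5 and 1266, 1462, 1302, 1322 and 1254 in WT 1 to WT 5. HT 4 was the lowest library and HT 1 and HT 3 lay above all WT libraries, with means of 1390 ± 205 and 1321 ± 83.1 (0.06 ± 0.096, exact permutation p = 0.611). *Slit1*, the most abundant Slit, read 2454, 2474, 2494, 1874 and 2496 in HT 1 to HT 5 and 2316, 2273, 2745, 2505 and 2311 in WT 1 to WT 5. HT 4 was again the lowest and the other HT libraries lay within the WT range, with means of 2359 ± 271 and 2430 ± 198 (−0.05, and 0.03 without HT 4). Among the netrins, *Ntng1* read 1391, 1455, 1573, 1562 and 1525 in HT 1 to HT 5 and 1363, 1458, 1452, 1374 and 1426 in WT 1 to WT 5, so that 3 HT libraries lay above every WT library (0.08 ± 0.051, exact permutation p = 0.0635, and 0.07 without HT 4). *Ntng2* read 865, 949, 954, 785 and 978 in HT 1 to HT 5 and 955, 989, 954, 920.4 and 954 in WT 1 to WT 5. HT 1 and HT 4 lay below all WT libraries, and the means were 906 ± 80.0 in HT and 954 ± 24.1 in WT (−0.08, and −0.03 without HT 4).

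Among the receptors, *Ephb1*, an EphB receptor used in retinal and callosal pathfinding, read 2421, 2380, 2536, 2617 and 2567 in HT 1 to HT 5 and 2397, 2401, 2258, 2420 and 2201 in WT 1 to WT 5. All HT libraries but HT 2 lay above every WT library, HT 1 only just. The means of 2504 ± 100.2 and 2335 ± 98.9 gave 0.10 ± 0.049 (SE), with an unadjusted limma p of 0.0586 and an exact permutation p of 0.0476. Without HT 4, its highest library, the difference was 0.08 (limma adjusted p = 0.634). Of the 14 Eph receptors, 7 had fold changes above 0 and 7 below (median 0.012). *Epha5*, the most abundant per kilobase, read 6129, 5957, 6141, 4883 and 6090 in HT 1 to HT 5 and 5643, 5673, 5871, 6069 and 5981 in WT 1 to WT 5. HT 1, HT 3 and HT 5 lay above all WT libraries and HT 4 below all of them, and the means were 5840 ± 540 in HT and 5847 ± 187 in WT (−0.0067, and 0.06 without HT 4).

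*Nrp1* had the smallest p of the neuropilins, with 1613, 1586, 1487, 1099 and 1419 in HT 1 to HT 5 and 1510, 1476, 1636, 1570 and 1562 in WT 1 to WT 5. HT 4 and HT 5 lay below all WT libraries, and the means of 1441 ± 206 and 1551 ± 61.3 differed by −0.12 ± 0.091 (SE, exact permutation p = 0.310), or −0.02 without HT 4. *Nrp2* read 4850, 4714, 5087, 3287 and 4775 in HT 1 to HT 5 and 4673, 4589, 4655, 4901 and 4571 in WT 1 to WT 5. HT 3 was the highest library, HT 4 the lowest and the rest overlapped, and the means were 4543 ± 716 and 4678 ± 132 (−0.06, and 0.05 without HT 4). *Plxnc1*, the receptor of *Sema7a*, had the smallest p of the plexins, with 3908, 3850, 3950, 3030 and 3722 in HT 1 to HT 5 and 3503, 3398, 3581, 3558 and 3508 in WT 1 to WT 5. HT 4 was again below, and the other 4 HT libraries above, all WT libraries. Its log2 fold change was 0.07 ± 0.068 (SE; exact permutation p = 0.413) and 0.14 without HT 4 (limma p = 0.00177, adjusted p = 0.446). *Plxna1*, the most abundant plexin, read 11523, 10748, 11416, 8342 and 11091 in HT 1 to HT 5 and 10156, 12295, 11531, 11161 and 9995 in WT 1 to WT 5. HT 4 was the lowest and the other HT libraries lay within the WT range (10624 ± 1311 in HT and 11028 ± 962 in WT), a difference of −0.06, or 0.03 without HT 4.

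*Robo2* read 7382, 7051, 7365, 5250 and 7173 in HT 1 to HT 5 and 6743, 6894, 7395, 7228 and 7358 in WT 1 to WT 5. HT 4 was far below the rest, and the means were 6844 ± 902 and 7124 ± 290 (−0.07, and 0.02 without HT 4). Of the repulsive netrin receptors, *Unc5c*, the member with the smallest p of the Unc5 family, read 2322, 2072, 2010, 1508 and 1695 in HT 1 to HT 5 and 2121, 1814, 2300, 1860 and 1870 in WT 1 to WT 5, and its means were 1921 ± 321 and 1993 ± 210 (−0.06, and 0.02 without HT 4). *Unc5a* read 1616, 1467, 1557, 1297 and 1556 in HT 1 to HT 5 and 1478, 1468, 1468, 1661 and 1557 in WT 1 to WT 5. HT 4 was the lowest library in both, and the *Unc5a* means were 1499 ± 125 and 1526 ± 84.3 (−0.03, and 0.02 without HT 4). *Dcc* read 2779, 2578, 2648, 1721 and 2296 in HT 1 to HT 5 and 2529, 2325, 2717, 2651 and 2573 in WT 1 to WT 5. HT 4 and HT 5 lay below all WT libraries, and the means were 2404 ± 421 and 2559 ± 150 (−0.11, and 0.0078 without HT 4). In *Plxna1* and these 4 receptors the groups overlapped, and the SD in HT was larger than in WT.

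**Figure D2:**
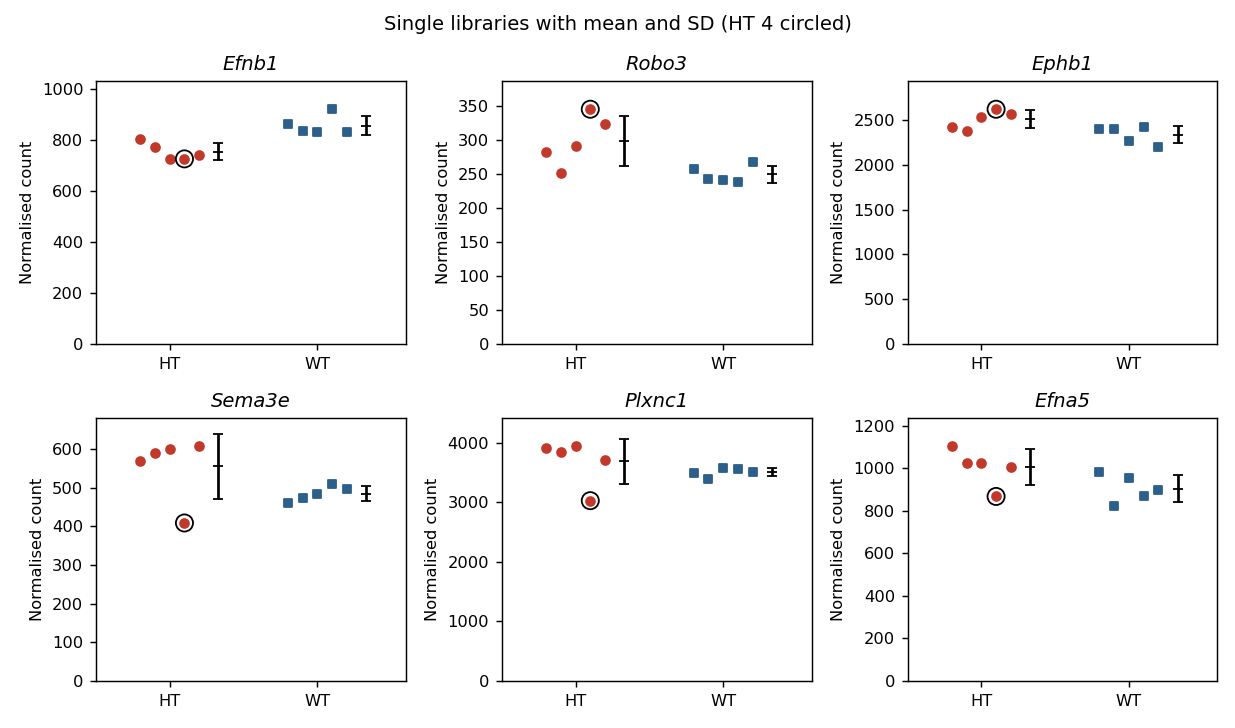
Normalised counts of 6 members in single libraries (HT as circles, WT as squares), with the mean and SD of each group at the right of its points and HT 4 circled. *Efnb1* is lower in each HT library, whereas in *Sema3e* and *Plxnc1* the HT libraries other than HT 4 lie above WT and HT 4 lies below.

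HT 4 was the lowest of the 10 libraries for 38 of 70 members (54.3%), against 27.5% of all genes tested, and the highest for 8 (11.4%), against 24.7%. The trait was not particular to these families. HT 4 was also the lowest for 56.9% of 58 intracellular effectors and 67.6% of 37 other cues and coreceptors, lists described further below. Its median deviation from the 10-library mean of each gene was −0.14 (log2) for the members, where the other libraries ran from −0.028 to 0.078. The members took 0.485% of all normalised counts in HT 4 and 0.538% to 0.578% in the other libraries. The deviation was unequal between families. Among receptors its median was −0.52 for *Dcc*, −0.46 for neuropilins, −0.29 for Unc5 receptors, −0.25 for plexins, −0.087 for Robos and −0.062 for Eph receptors. Among ligands it was −0.35 for Slits, −0.14 for semaphorins, −0.024 for ephrins and 0.10 for netrins. Members of a family differed in sign. In HT 4, *Robo3* (0.34), *Robo4* (0.23) and *Unc5b* (0.26) were above their gene means, unlike the medians of their families. *Ntn3* (−0.39) and *Ntng2* (−0.24) were below theirs. All 3 Slits and both neuropilins had their lowest value in HT 4.

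**Figure D3:**
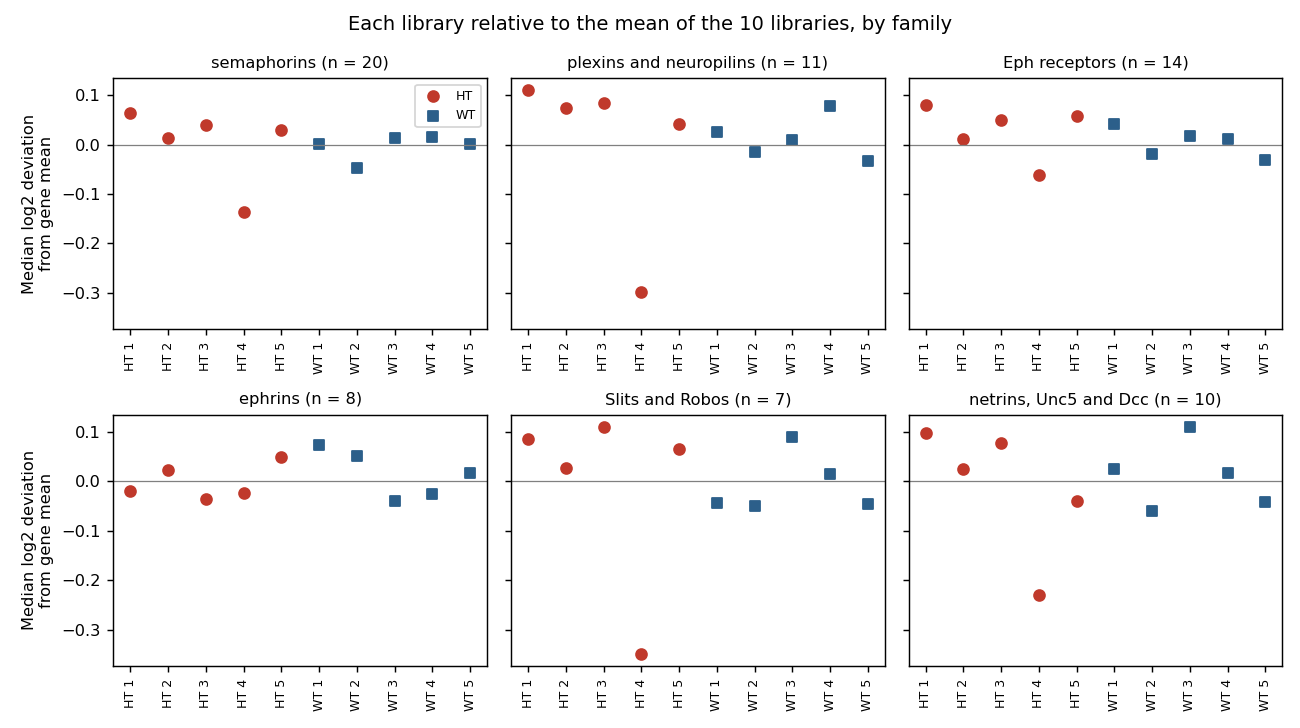
Median deviation of the members of each family from its 10-library mean (log2) in each HT (circles) and WT (squares) library. HT 4 lies at −0.35 for the 7 Slits and Robos pooled and −0.30 for plexins and neuropilins, but at −0.024 for ephrins. The last panel pools netrins, whose median is above 0 in HT 4, with Unc5 receptors, whose median is below 0, and *Dcc*, which is below 0.

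Deviations varied with transcript length, in HT 4 and in other libraries. The members are long, with a median longest coding transcript of 4874 bases against 3060 over all genes tested. In HT 4 the 25 members with transcripts of at least 6000 bases deviated by a median of −0.34, the 24 between 4000 and 6000 by −0.089 and the 21 shorter ones by −0.024, and the corresponding medians over all genes were −0.31, −0.13 and 0.096. Across the 70 members, the Spearman rank correlation of the deviation with transcript length was −0.51 in HT 4 and 0.51 in HT 1. It was 0.34 in HT 2, 0.47 in HT 3, −0.018 in HT 5 and between −0.27 and 0.24 in WT. These correlations describe genes that share a library and are not independent. The largest deviation in HT 4 was outside this pattern. *Epha6*, an Eph receptor of cortical areas named here after its values were seen, read 123 in HT 4, 347 to 465 in the other HT libraries and 254 to 388 in WT. HT 4 also had the lowest summed forebrain markers, 15083 normalised counts against 19466 to 22868 in WT and 20463 to 22662 in the other HT libraries. Its summed markers were the highest of all libraries for cerebellum, at 10493 (WT 7599 to 9798, other HT 5851 to 9071), the oligodendrocyte lineage, at 17131 (WT 12162 to 14195, other HT 11963 to 15694) and astrocytes and radial glia, at 51216 (WT 40912 to 49772, other HT 43497 to 47187). Its summed neuronal markers, at 159191, lay within the WT range of 152561 to 160684. The part of transcript length, of cell types and of the dissected regions in the HT 4 values was not tested.

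**Figure D4:**
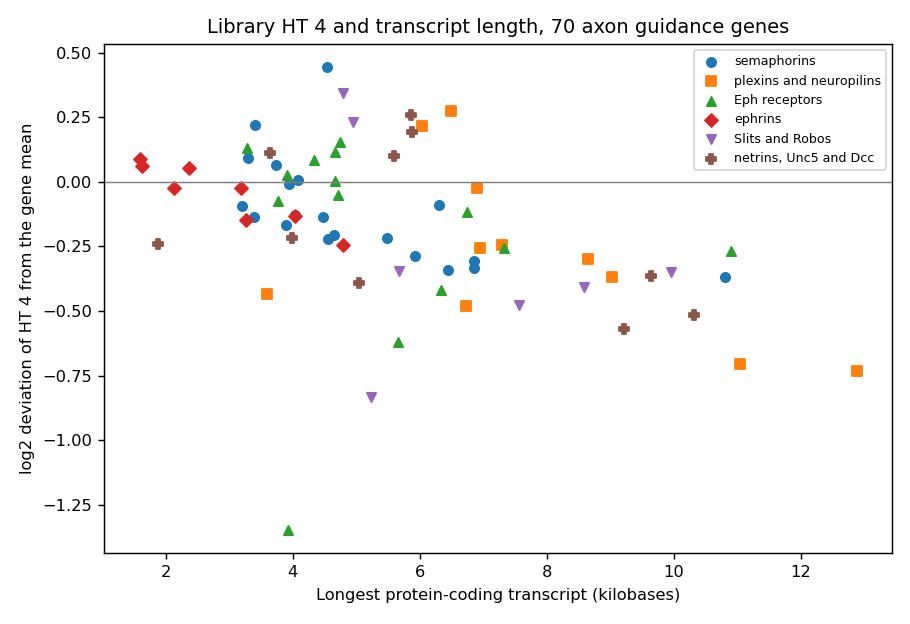
Deviation of library HT 4 from the 10-library mean of each gene (log2) against the length of the longest coding transcript for the 70 members, by family. The 25 members of at least 6 kilobases have a median of −0.34, and *Epha6* lies lowest at −1.35.

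With HT 4 left out, the fold change was above 0 for 47 of 70 members (67.1%, background 49.6%), 20 members changed from below to above 0 and 1 the other way, and the median was 0.028 against −0.00081 over all genes. At an unadjusted p under 0.05, 15 members were higher (21.4%, background 4.69%) and 3 lower (4.29%, background 3.71%). Together these were 25.7% of the members, against 8.4% of all genes. In 5 members each of the 4 HT libraries was above all WT libraries (7.14%, background 1.75%), and in *Efnb1* each was below (1.43%, background 1.21%). No member passed the limma adjusted p of 0.05 (0.0118% of all genes did), and the smallest was 0.269, for *Sema3e*. By family, the medians were 0.14 for Slits and Robos, 0.066 for Eph receptors, 0.054 for plexins and neuropilins, 0.021 for netrins, Unc5 receptors and Dcc, 0.014 for semaphorins and 0.0051 for ephrins. The 36 ligands had a median of 0.021 and the 34 receptors 0.055, where all libraries gave −0.0012 and −0.031. By transcript length, the medians without HT 4 were 0.074 for the 25 members of at least 6000 bases and 0.046 for the 24 between 4000 and 6000. For the 21 shorter members the median was −0.010. The part of transcript length in these counts was not tested.

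The members behind these counts, other than those given above, were named after their values were seen. Among ligands, *Efna5*, a lipid-anchored ephrin that shapes topographic maps, read 1104, 1023, 1025, 867 and 1003 in HT 1 to HT 5 and 979.8, 819.8, 953, 867 and 899 in WT 1 to WT 5. The HT libraries other than HT 4 lay above all WT libraries, and its log2 fold change of 0.15 (exact permutation p = 0.0635) became 0.20 without HT 4 (limma adjusted p = 0.446). *Sema5a*, a membrane semaphorin with thrombospondin repeats, went from 0.11 to 0.22 without HT 4, *Sema3c* from 0.10 to 0.16, *Sema3a*, the classic growth cone collapsing cue, from 0.07 to 0.15 and *Slit2* from 0.06 to 0.16. Among receptors, *Robo1* read 5565, 5333, 5301, 3527 and 5298 in HT 1 to HT 5 and 4815, 4745, 5237, 4962 and 4654 in WT 1 to WT 5, a log2 fold change of 0.02 (exact permutation p = 0.968) that became 0.14 without HT 4 (limma adjusted p = 0.446). *Plxna3*, a partner of *Nrp2* for class 3 semaphorins, read 5663, 5520, 5668, 4397 and 5459 in HT 1 to HT 5 against 4981 to 5337 in WT, and went from 0.04 to 0.11. The remaining higher receptors were *Epha3*, *Epha6*, *Ephb6*, *Plxna2* and *Plxna4*, with values without HT 4 between 0.10 and 0.37.

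The 3 lower members without HT 4 were *Efnb1*, *Ephb4* and *Plxnb2*. *Ephb4*, the receptor for ephrin-B2 on venous vessels, read 306, 281, 256, 322 and 274 in HT 1 to HT 5 and 327, 346, 305, 328 and 300.3 in WT 1 to WT 5. HT 1 and HT 4 lay within the WT range and the other HT libraries below it (−0.16, exact permutation p = 0.0635, and −0.20 without HT 4, limma adjusted p = 0.537). Without HT 4 the markers of vessel cells had a median log2 fold change of −0.13, with 2 of 9 above 0. The part of vessel cells in the *Ephb4* value was not tested. *Plxnb2*, a receptor of class 4 semaphorins, read 4371, 3613, 4093, 5275 and 4056 in HT 1 to HT 5 against 4364 to 4681 in WT, and went from −0.08 to −0.16.

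**Figure D5:**
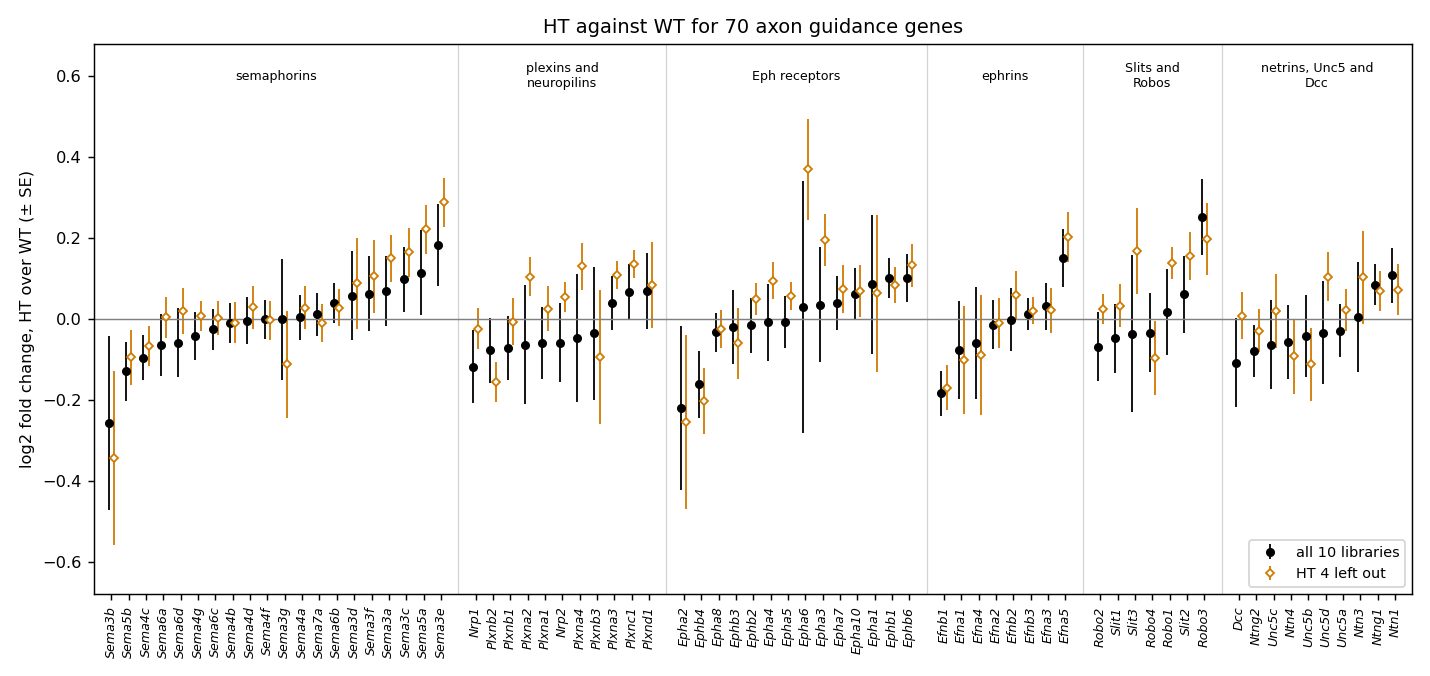
log2 fold change, HT over WT, with its SE for the 70 members by family, for all 10 libraries (filled circles) and with HT 4 left out (open diamonds). Without HT 4, 47 of 70 values are above 0, against 28 of 70 with all libraries, and *Efnb1* is near −0.18 in both.

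When a smooth trend on transcript length and GC content was removed from each library and all 10 libraries were kept, 8 members were higher at an unadjusted p under 0.05 (11.4%, background 2.88%) and 1 was lower (1.43%, background 1.73%). The 8 were *Efna5*, *Ephb1*, *Plxnc1*, *Robo3*, *Sema3a*, *Sema3c*, *Sema3e* and *Sema5a*. The groups did not overlap for 2 members (2.86%, background 0.952%), and 38 of 70 were above 0 (54.3%, background 54.3%). The median over members was then 0.0073, against 0.0087 over all genes, and the median deviation of HT 4 was −0.059. With the trend removed and HT 4 left out, 13 were higher (18.6%, background 4.72%) and 3 lower (4.29%, background 3.22%), the groups of 8 did not overlap (11.4%, background 2.69%), and 47 of 70 were above 0 (67.1%, background 54.5%). No member had a limma adjusted p below 0.432 in that fit, or below 0.999 with the trend removed and all libraries kept. In each of these fits 0.0118% of all genes had an adjusted p under 0.05.

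Genes of the same pathways outside these families were read in the same way. Of 58 intracellular effectors, such as collapsin response mediators, kinases and regulators of the cytoskeleton, none had an unadjusted p under 0.05 with all libraries (21 with fold changes above 0 and 37 below, median −0.014). Without HT 4, 6 were higher (10.3%, background 4.69%) and none lower (background 3.71%), with a median of 0.024, among them the kinase *Pak3*, which acts downstream of Rac and Cdc42 (0.06 with all libraries and 0.17 without HT 4). Of 37 other cues and coreceptors, *Rtn4r*, the Nogo receptor, had a higher mean (0.13, unadjusted limma p = 0.0383, exact permutation p = 0.0317) and *Boc*, a Sonic hedgehog coreceptor, a lower one (−0.20, p = 0.0472 and 0.0952), together 5.41% of the list against 3.41% of all genes, with a median of −0.025. Without HT 4 these values were 0.10 and −0.21, and of the 37 genes 5 were higher (13.5%, background 4.69%) and 2 lower (5.41%, background 3.71%), with a median of 0.039. With all libraries, 3 of these 37 genes had an exact permutation p under 0.05, against 3.9% of all genes. Besides *Rtn4r* they were *Draxin* (−0.14, exact permutation p = 0.0397) and *Rgmb* (0.091, exact permutation p = 0.0476). No effector had an exact permutation p under 0.05. No gene of either list passed the limma adjusted p of 0.05 in either fit.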

How the data were processed

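Whole-brain RNA was prepared with a TruSeq Stranded mRNA kit and sequenced as paired reads. According to the methods of the study and the submitters' processing notes, the authors quantified reads with Salmon 1.1.0 on GRCm38 with a GC bias correction, imported gene estimates with tximport and divided them by DESeq2 1.30.1 size factors. The annotation release and any filter on low genes are not given in the sources used here. The deposited table holds this signal, a normalised count for each gene and library. Low values were spaced by roughly 1 read, but only 14.2% to 43.2% of values under 20 reads were whole within 0.05 read, so no count model was fitted. Identifiers were matched to GENCODE M21 (18431 of 18444) for symbols, positions and transcript lengths.

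Values were analysed as log2(value + 1), which understates the change of low genes, in R 4.3.3 with limma 3.58.1 (trend, robust empirical Bayes, two-sided, no covariate, Benjamini-Hochberg adjustment over all genes tested). Genes with a mean of at least 10 were kept (17020), and 1424 were left out. Intervals are limma 95% intervals, and single genes also received a two-sided exact permutation test over the 252 splits into 5 and 5. The workflow was tested on simulated data. Groups came from the sample labels, and nothing ties the replicate numbers to litters. According to the paper, its mice came from crosses of HT males with WT females. Which of the sequenced mice shared a litter is not given. Counting error was not modelled. By rule, a member was given library values if its unadjusted or exact p was under 0.05 with all libraries or its groups did not overlap. Members with the smallest p or highest WT level of their family were also given them. Library values of *Efna5*, *Robo1*, *Plxna3*, *Ephb4*, *Plxnb2* and *Epha6* are outside this rule and were chosen after the values were seen. The members and gene lists were chosen with earlier results of these data known. The alternatives tried were other pseudocounts, filters and normalization, sample weights, a non-robust fit, a replicate block, removal of a length and GC trend, and leaving out each library. Values of 1 gene of the hindbrain and spinal cord marker list are not reported here, and the sum given for these regions is over the other 6 genes.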

Additional observations from a re-analysis of the deposited data

Results flagged for a closer look

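Of 54 groups of 5 values examined, 14 held a library farther from the others than Dixon's 95% limit for 5 samples (0.71 of the range). Chance flags about 1 in 20 groups, or 2.7 here, and the groups share libraries. In 13 of the 14 the distant library was HT 4, which was the lowest each time.

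In normalised counts, HT 4 read 1505 for *Arid1b* (other HT libraries 2142 to 2372), 408 for *Sema3e* (569 to 608), 4541 for *Sema4g* (5262 to 5501), 1874 for *Slit1* (2454 to 2496) and 4883 for *Epha5* (5957 to 6141). It read 8342 for *Plxna1* (10748 to 11523), 3030 for *Plxnc1* (3722 to 3950), 3287 for *Nrp2* (4714 to 5087) and 5250 for *Robo2* (7051 to 7382).

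The median log2 deviation of HT 4 was −0.14 over all members (other HT libraries 0.027 to 0.078), −0.14 over semaphorins, −0.30 over plexins and neuropilins and −0.35 over Slits and Robos. In WT, library WT 2 was distant for the semaphorins at −0.048, against 0.00042 to 0.015 in the other WT libraries.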

How the results depend on the processing

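The number of members past an adjusted limma p of 0.05 was 0 under all alternatives. The number at an unadjusted p under 0.05, 2 as reported, was 13 with sample weights, 9 with the length and GC trend removed, 16 with the trend removed and HT 4 left out, and 2 to 18 when each library was left out, 18 being without HT 4. It was 4 without HT 1 and 4 without WT 3. Members whose groups did not overlap, 1 as reported, numbered 2 with the trend removed, 8 with the trend removed and HT 4 left out, and 1 to 6 when each library was left out (6 without HT 4, 3 without HT 2). The median log2 fold change of Eph receptors was 0.058 with weights, 0.061 with the trend removed and HT 4 left out, and −0.036 (without HT 1) to 0.066 (without HT 4) by library. With the trend removed and HT 4 left out, that of ephrins was 0.037 and that of Slits and Robos 0.11, and the latter ran from −0.067 to 0.14 by library. *Arid1b* passed the limma threshold with weights (−0.60), with the trend removed (−0.66), with the trend removed and HT 4 left out (−0.61) and without HT 4, and ran from −0.73 to −0.57 by library. The cause was not tested.

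Of the 19 members named by the rule, 10 with small negative values turned positive under some settings, each with an adjusted p of at least 0.696. With weights these were *Epha5* 0.047, *Nrp2* 0.032, *Plxna1* 0.0063, *Robo2* 0.010, *Slit1* 0.012 and *Unc5a* 0.0081. With the trend removed it was *Epha5* at 0.045. With the trend removed and HT 4 left out they were *Epha5* 0.016, *Nrp2* 0.039, *Ntng2* 0.010, *Plxna1* 0.0053, *Sema4g* 0.024, *Slit1* 0.038 and *Unc5a* 0.030. Without HT 4 they were *Dcc* 0.0078, *Epha5* 0.056, *Nrp2* 0.054, *Plxna1* 0.026, *Robo2* 0.025, *Sema4g* 0.0078, *Slit1* 0.033, *Unc5a* 0.022 and *Unc5c* 0.020. Without WT 4 *Epha5* was 0.0068 and *Unc5a* 0.0020, and without WT 5 *Epha5* was 0.0016. The lowest values with 1 library left out were *Dcc* −0.17, *Epha5* −0.026, *Nrp2* −0.10, *Plxna1* −0.094, *Robo2* −0.098, *Sema4g* −0.063, *Slit1* −0.071, *Unc5a* −0.057 and *Unc5c* −0.14.

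With the replicate number as a replicate block, 0 members passed the adjusted threshold and 3 had an unadjusted p under 0.05. Deviations of libraries with the same number correlated between −0.10 and 0.093, so the numbers were not treated as pairs. Depth was similar between libraries. The SD over WT libraries was 13.2% of the mean for *Epha1* and 32.8% for *Epha2*, both low genes, against a median of 5.94% over the members. The part of counting error in this spread was not tested.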
